A study of Mus musculus with 4 samples.

Results

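Brown and beige adipocytes burn fuel to make heat, and 9 genes that mark these cells or run their heat programme were followed in mouse mammary fat pad (MFP) with age. The 9 genes are Ucp1, Ppargc1a, Dio2, Elovl3, Prdm16, Zic1, Lhx8, Otop1 and Kcnk3. They were chosen by name, as the rows of the deposited count table that carry these symbols, and all 9 were found among its 55487 genes. Each passed the filter on low counts, although Zic1 did so only through the aged libraries. The MFP came from mice labelled c57b/6j of 8 weeks (young) and 14 months (aged), with no other treatment or transgene named in the labels, and 2 libraries of total RNA were made at each age. The labels call the samples of an age biological replicates, but nothing states which gland was taken, whether animals were pooled or whether litters differed, so p-values measure the spread between these samples. The methods describe the mice used for tumour injection as female. The whole tissue was lysed without isolating adipocytes, so every cell type of the pad contributed RNA. Ribosomal RNA was depleted, and the library kit keeps the strand.

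In brown and beige fat, noradrenaline from sympathetic nerves acts on beta adrenergic receptors, raises cyclic AMP, frees fatty acids from the lipid droplet and switches on genes for heat production. The uncoupling protein Ucp1 then lets protons back across the inner mitochondrial membrane without making ATP. Mouse mammary gland lies in subcutaneous white fat, a depot known for beige adipocytes that appear among the white ones. Ppargc1a and Prdm16 act on transcription in this programme, Dio2 supplies active thyroid hormone, and Zic1 and Lhx8 are used to tell classical brown from beige fat.

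Cyclic AMP acts on genes partly through the factor CREB, whose response element is written TGACGTCA and whose half-site is TGACG. Of the 9 genes, 7 have a start site in the RefSeq promoter table (GRCm38.p6), and Elovl3 and Kcnk3 are named only. On either strand of the 250 bases before the start, the half-site was found in 3 of the 7, Ucp1, Dio2 and Ppargc1a, and in 17.8% of 32851 promoters. These 3 promoters are shown because the genes are known targets of adrenergic signalling and gave opposite differences with age. Each is written 5′ to 3′ on the strand of the gene and ends at the base before the start, with the half-site or, in Dio2, the full element in capitals. The windows are chr8:83290098-83290347 (plus strand) for Ucp1, chr12:90739039-90739288 (minus strand) for Dio2 and chr5:51567726-51567975 (minus strand) for Ppargc1a.
Ucp1: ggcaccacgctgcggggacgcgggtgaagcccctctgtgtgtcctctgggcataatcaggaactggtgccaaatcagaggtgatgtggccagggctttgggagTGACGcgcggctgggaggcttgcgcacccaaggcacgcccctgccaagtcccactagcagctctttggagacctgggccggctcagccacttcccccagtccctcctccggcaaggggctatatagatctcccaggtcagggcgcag
Dio2: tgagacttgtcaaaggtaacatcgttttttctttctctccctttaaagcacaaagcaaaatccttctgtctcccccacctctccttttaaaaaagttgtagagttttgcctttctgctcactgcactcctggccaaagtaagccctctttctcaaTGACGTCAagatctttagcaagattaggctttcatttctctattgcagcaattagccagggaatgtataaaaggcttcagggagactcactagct
Ppargc1a: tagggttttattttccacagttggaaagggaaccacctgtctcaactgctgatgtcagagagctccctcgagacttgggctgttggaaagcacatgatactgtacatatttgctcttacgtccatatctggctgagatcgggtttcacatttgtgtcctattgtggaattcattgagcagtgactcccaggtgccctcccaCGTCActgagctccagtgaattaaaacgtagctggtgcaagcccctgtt
The half-site begins 147 bases before the start in Ucp1, and on the opposite strand 49 bases before it in Ppargc1a. Dio2 holds the full element, which contains the half-site on both strands, beginning 95 bases before the start. The full element is present in 1.55% of all promoters. Other motifs searched on both strands were TATAAA, found in Dio2 and 12.4% of all promoters, CCAAT, found in Prdm16 and Zic1 and 33.8%, and AGGTCA, found in Ucp1 and 14% of all promoters. A match describes the letters only, and binding was not measured.

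The libraries held 77661766 (replicate 1) and 68803304 (replicate 2) counts in young MFP, against 83936413 and 98402403 in aged MFP. Levels are given as CPM, counts relative to the library total scaled by the TMM method, at which 3 counts correspond to 0.0337 to 0.0407 CPM and cover counting error only. Markers of adipocytes were abundant in all 4 libraries and summed to 16200 and 16620 CPM in young and 21820 and 18520 CPM in aged MFP. Markers of mammary epithelium were present too, at 1566 to 3871 CPM. The 12 markers of skeletal muscle differed 4.15-fold between the ages, at 10220 and 14350 CPM in young and 39260 and 62700 CPM in aged MFP. Both aged libraries were above both young ones for 11 of 12 and below for 0, where 23.3% of all genes were above and 22.8% below. Young replicate 1 stood apart by its lymphocyte markers, which summed to 1228 CPM against 6.23 CPM in young replicate 2 and 13.2 and 105 CPM in the aged replicates. Aged replicate 1 stood apart by Myh2, a fast muscle myosin, at 578 CPM against 1.06 to 2.16 CPM in the other libraries. Whether Ucp1 and the other genes differed with age was tested with edgeR's quasi-likelihood test and Benjamini-Hochberg adjustment over 22485 genes.

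**Figure D1:**
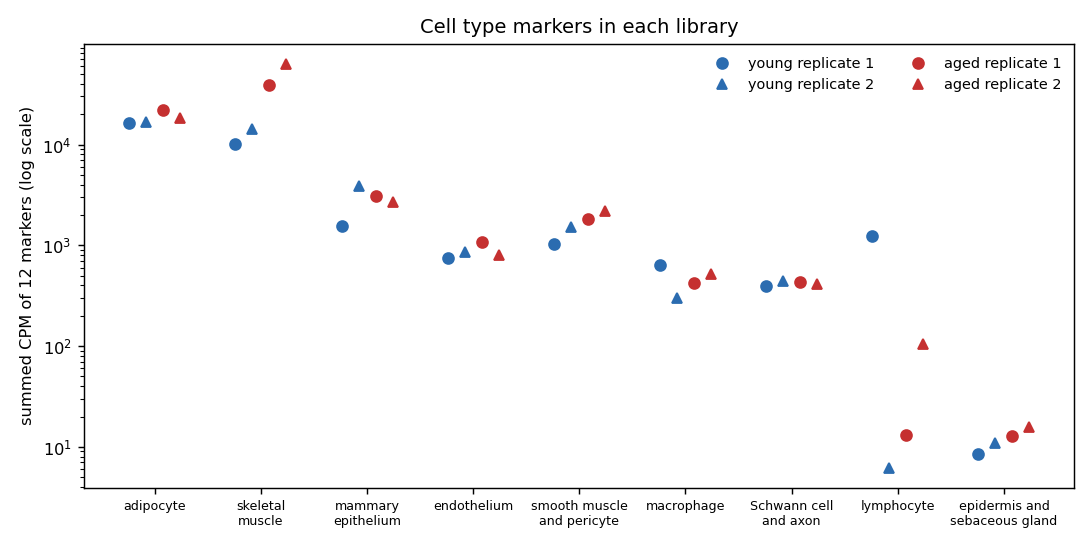
Summed CPM of 12 markers of each cell type (log scale) in each library, with young in blue, aged in red, circles for replicate 1 and triangles for replicate 2. Muscle markers are higher in both aged libraries (39260 and 62700 CPM) than in the young ones, and lymphocyte markers are high in young replicate 1 alone (1228 CPM).

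The 9 genes did not share a direction. Ucp1 and Dio2 were lower in both aged libraries than in both young ones. Ppargc1a, Prdm16, Elovl3 and Zic1 were higher in both aged libraries, and Lhx8, Otop1 and Kcnk3 overlapped between the ages. Not 1 of the 9 genes passed an adjusted p of 0.05 by edgeR's quasi-likelihood test, where 0.0% of all genes tested did, and the smallest adjusted p of the 9 was 0.385. At an unadjusted p of 0.05, Ppargc1a and Zic1 were higher and Ucp1 was lower, 3 of 9 genes against 10.5% of all genes tested (7.24% higher and 3.31% lower). Zic1 entered this test only through the aged libraries in which it was high, and without it the count was 2 of 8. DESeq2, the tool named in the methods for these data, called Ppargc1a and Zic1 higher in aged MFP (3.03% of all genes called higher) and none of the 9 lower (0.642% called lower). Having both aged libraries above both young ones was seen in 4 of 9 genes and in 23.3% of all genes, and both below in 2 of 9 genes and in 22.8% of all genes. Zic1, with the same limit from the filter, is 1 of these 4 and is included in the medians that follow. The median log2 fold change of the 9 genes was 0.30, beside -0.04 for all genes tested, and it was -0.09 when libraries were scaled to adipocyte markers, beside -0.37 for all genes. With 2 libraries at each age, the smallest p that an exact permutation test (two-sided) can give for 1 gene is 0.333.

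**Figure D2:**
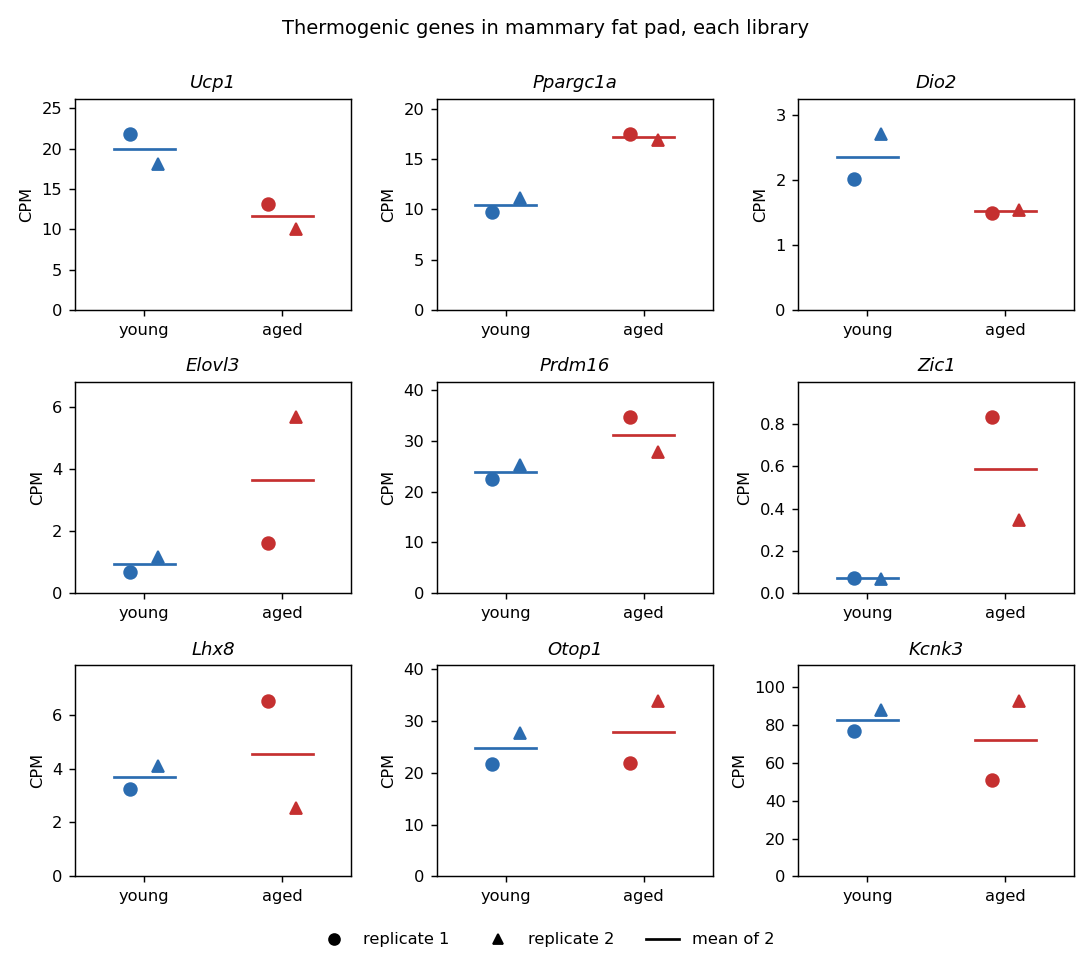
CPM of each of the 9 genes in each library, with young in blue, aged in red, circles for replicate 1, triangles for replicate 2 and a line at the mean of the 2. Ucp1 lies at 18.1 to 21.8 CPM in young and 10.1 to 13.1 CPM in aged MFP, Ppargc1a lies higher in both aged libraries, and Otop1 and Kcnk3 overlap.

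Ucp1 (ENSMUSG00000031710, GRCm38 chromosome 8, 83290352 to 83298452, plus strand), the uncoupling protein and defining effector of brown and beige fat, was at 21.8 CPM in young replicate 1, 18.1 CPM in young replicate 2, 13.1 CPM in the first and 10.1 CPM in the second aged replicate. These are 1784, 1334, 1069 and 898 counts, so counting error is small beside the difference, and the ages did not overlap. The mean was 19.9 ± 2.61 CPM (SD, n = 2) in young and 11.6 ± 2.11 CPM (SD, n = 2) in aged MFP, a ratio of 0.581. On the log2 scale the change from young to aged was -0.78 (SE, its standard error, 0.23, adjusted p = 0.432 by edgeR with Benjamini-Hochberg adjustment, adjusted p = 0.131 by DESeq2). Leaving out each library in turn gave -1.0 to -0.61, and -0.64 without the lymphocyte-rich young replicate 1. In RNA of whole tissue, fewer thermogenic cells and less RNA per cell cannot be told apart.

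Adipocyte markers did not follow Ucp1. Their sum was 1.23 times as high in aged as in young MFP. Both aged libraries were higher for 10 of 12 markers and lower for 0, where 23.3% of all genes were above and 22.8% below. Adipoq, the adiponectin gene, was at 531 and 430 CPM in young and 1140 and 777 CPM in aged MFP. Per 1000 CPM of adipocyte markers, Ucp1 was at 1.34 and 1.09 CPM in young and 0.599 and 0.545 CPM in aged MFP. With libraries scaled to these markers the ages lay further apart, at -1.13 on the log2 scale (adjusted p = 0.367 by edgeR), where the median of all genes moved to -0.37. Relative to the median of all genes, Ucp1 lay at -0.75 on the TMM scale.

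Dio2 (ENSMUSG00000007682, chromosome 12, 90724552 to 90738438, minus strand), the deiodinase that turns thyroxine into the active hormone inside brown adipocytes, was at 2.01 and 2.70 CPM in young and 1.49 and 1.54 CPM in aged MFP. Both aged libraries were lower, and the 2 aged values lay closer together than the 2 young ones. The mean was 2.35 ± 0.484 CPM (SD, n = 2) in young and 1.52 ± 0.0328 CPM (SD, n = 2) in aged MFP. Its log2 fold change was -0.64 (SE 0.32, adjusted p = 0.531 by edgeR), and -0.96 when scaled to adipocyte markers. It rests on 122 to 199 counts per library and was -0.41 without young replicate 2.

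Ppargc1a (ENSMUSG00000029167, chromosome 5, 51454250 to 51567726, minus strand), the coactivator of mitochondrial biogenesis that also acts on the Ucp1 gene, was at 9.73 and 11.1 CPM in young and 17.5 and 16.9 CPM in aged MFP. The replicates lay close together at each age and the ages were well apart, in the opposite direction to Ucp1. The mean was 10.4 ± 0.936 CPM (SD, n = 2) in young and 17.2 ± 0.442 CPM (SD, n = 2) in aged MFP, a ratio of 1.66. Its log2 fold change was 0.73 (SE 0.18, adjusted p = 0.409 by edgeR, adjusted p = 0.0413 by DESeq2). It was 0.40 (adjusted p = 0.47 by edgeR) when scaled to adipocyte markers, with both aged libraries still higher at 0.804 and 0.913 against 0.601 and 0.665 CPM per 1000 CPM of markers. Ppargc1a is expressed in skeletal muscle as well as fat, and the muscle markers were 4.15 times as high in aged MFP. Their part in the result was not tested.

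Prdm16 (ENSMUSG00000039410, chromosome 4, 154316125 to 154636873, minus strand), the transcriptional regulator that holds adipocytes in the brown and beige state, was at 22.4 and 25.3 CPM in young and 34.6 and 27.7 CPM in aged MFP. Both aged libraries were higher, but aged replicate 2 was only just above young replicate 2. With age, Prdm16 differed by 0.38 on the log2 scale (SE 0.19, adjusted p = 0.532 by edgeR), and by 0.20 without aged replicate 1. Per adipocyte marker the ages overlapped, at 1.38 and 1.52 in young and 1.58 and 1.5 CPM per 1000 CPM of markers in aged MFP, and the change was 0.04 on the log2 scale.

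Zic1 (ENSMUSG00000032368, chromosome 9, 91358058 to 91365810, minus strand), a zinc finger factor used as a marker of classical brown fat, had the largest fitted change of the 9 genes and the lowest level. It was at 6 and 5 counts in young and 68 and 31 counts in aged MFP, or 0.0732 and 0.0678 CPM against 0.832 and 0.348 CPM. Exact Poisson intervals at 95% were 2.2 to 13.1 and 1.62 to 11.7 counts in young libraries. In aged libraries they were 52.8 to 86.2 and 21.1 to 44.0 counts. They did not overlap between the ages, but they take reads as independent and leave out the spread between samples. The filter on low counts kept Zic1 for its aged libraries alone, so a test of it is partly set by that choice, and it has no value where 10 counts are required in every library. With the filter as used, the log2 fold change was 3.03 (SE 0.63, adjusted p = 0.385 by edgeR, adjusted p = 0.0366 by DESeq2). It was 2.26 without aged replicate 1. All levels were under 1 CPM in a bulk tissue, and the cells that carry the RNA are not known.

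Lhx8 (ENSMUSG00000096225, chromosome 3, 154306294 to 154330659, minus strand), a LIM homeobox factor also used as a classical brown fat marker, did not share this pattern. It was at 3.24 and 4.11 CPM in young and 6.52 and 2.54 CPM in aged MFP. The 2 aged libraries lay on either side of the young ones. For Lhx8 the log2 fold change was 0.30 (SE 0.53, adjusted p = 0.826 by edgeR), and it was -0.55 without aged replicate 1 and -0.09 when scaled to adipocyte markers.

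Elovl3 (ENSMUSG00000038754, chromosome 19, 46131897 to 46135694, plus strand), an elongase of very long chain fatty acids that is induced by cold in brown fat and is also expressed in the sebaceous glands of skin, was at 0.695 and 1.18 CPM in young and 1.60 and 5.66 CPM in aged MFP. Both aged libraries were higher, and aged replicate 2 stood far above the other. For Elovl3 the log2 fold change was 1.95 (SE 0.75, adjusted p = 0.486 by edgeR) and 0.77 without aged replicate 2. Markers of epidermis and sebaceous gland were low throughout but highest in the same library, at 8.5 and 11.0 CPM in young and 12.9 and 15.7 CPM in aged MFP. Of these 12 markers, Flg and Awat1 had 3 counts or fewer in every library, and 8 were tested. Their part in the result was not tested.

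Otop1 (ENSMUSG00000051596, chromosome 5, 38275972 to 38304217, plus strand), a proton channel enriched in brown fat, was at 21.7 and 27.7 CPM in young and 21.9 and 33.9 CPM in aged MFP. The ages overlapped, and the log2 fold change of 0.18 (SE 0.29, adjusted p = 0.811 by edgeR) became -0.18 without aged replicate 2, -0.02 when libraries were scaled by total counts only and -0.12 when scaled to adipocyte markers. Kcnk3 (ENSMUSG00000049265, chromosome 5, 30588170 to 30625271, plus strand), a background potassium channel of brown and beige adipocytes that is also found in smooth muscle and nerve, was at 77.0 and 87.9 CPM in young and 51.1 and 92.9 CPM in aged MFP. Aged replicate 1 was the lowest and aged replicate 2 the highest of the 4 libraries. The log2 fold change of Kcnk3 was -0.19 (SE 0.33, adjusted p = 0.814 by edgeR), and 0.16 without aged replicate 1.

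**Figure D3:**
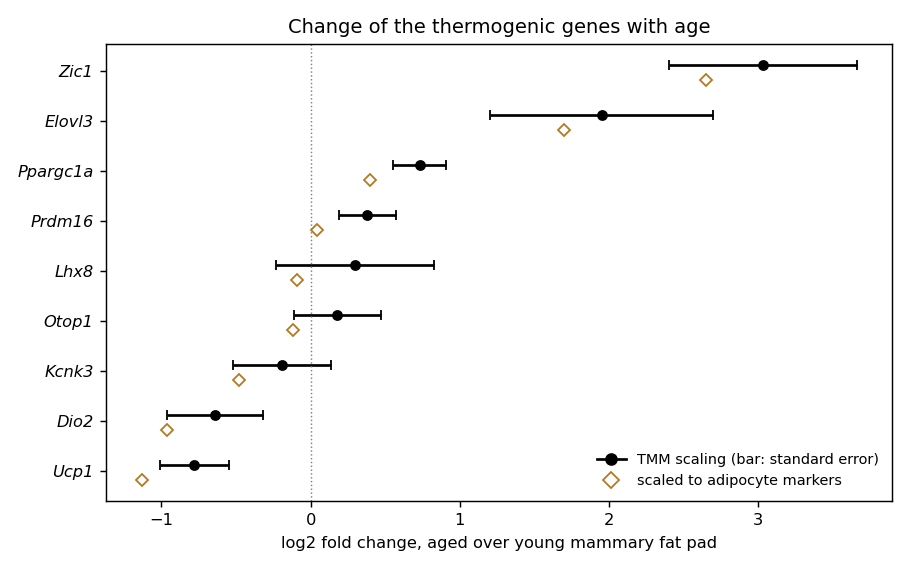
Change of each of the 9 genes with age (log2 of aged over young), with TMM scaling as black points (bars are the standard error from edgeR) and scaling to adipocyte markers as open diamonds. Ucp1 (-0.78) and Dio2 (-0.64) lie below 0 and Ppargc1a (0.73), Elovl3 (1.95) and Zic1 (3.03) above it on both scales, while Prdm16 (0.38) moves to 0.04, and Lhx8 and Otop1 cross 0, with adipocyte scaling.

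Leaving out young replicate 1, the library rich in lymphocyte markers, kept the direction of all 9 genes. The values on the log2 scale were then -0.64 for Ucp1, -0.83 for Dio2, 0.64 for Ppargc1a, 0.30 for Prdm16, 1.62 for Elovl3 and 3.09 for Zic1. The 3 overlapping genes then stood at 0.14 for Lhx8, 0.01 for Otop1 and -0.29 for Kcnk3. None of the 9 passed an adjusted p of 0.05 by edgeR without any 1 of the libraries.

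The 9 genes differed widely in level. Per kilobase of exon, the mean over the 4 libraries was highest for Kcnk3 at 19.4 CPM (12.9 to 23.4), followed by Ucp1 at 9.63 CPM (6.16 to 13.3) and Otop1 at 7.64 CPM (6.29 to 9.86). Prdm16 stood at 2.95 CPM per kilobase (2.41 to 3.71), Ppargc1a at 2.09 (1.48 to 2.66), Lhx8 at 1.62 (1.00 to 2.57) and Elovl3 at 1.16 (0.352 to 2.87). Dio2 at 0.333 (0.257 to 0.464) and Zic1 at 0.058 CPM per kilobase (0.0119 to 0.146) were lowest. Neighbours in this order overlapped in range, except that Otop1 lay wholly above Prdm16 and Dio2 wholly above Zic1. In aged replicate 2, Ucp1 at 6.16 CPM per kilobase was its lowest, while Kcnk3 and Otop1 were at their highest.

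Exons of 5 of the 9 genes overlap a gene on the other strand, and whether the counting used the strand is not given in the sources used here. Elovl3 shares 10 exon bases with Pitx3, which had 15 and 17 counts in young and 68 and 144 counts in aged MFP, highest in the library in which Elovl3 was highest. Zic1 shares 60 bases with Zic4, which had 0 counts in both young and 4 and 2 counts in aged libraries. Kcnk3 shares 229 bases with Gm9899, which had 419 and 520 counts in young and 304 and 630 counts in aged MFP. Dio2 shares 100 bases with Gm26512 and Prdm16 shares 109 with B230104I21Rik, both at 20 counts or fewer in every library. Ucp1, Ppargc1a, Lhx8 and Otop1 share no exon bases on the other strand.

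Genes with the same profile as Ucp1 were sought by the root mean square distance between log2 CPM values, each centred on the gene's own mean over the 4 libraries. The nearest were Gm23458 (0.0271), Gm37849 (0.0292), Galnt9 (0.033), Gm13241 (0.0343) and Mir1955 (0.0353), where the median of all tested genes was 0.52. Galnt9, a glycosyltransferase gene, was at 2.06 and 1.82 CPM in young and 1.27 and 0.954 CPM in aged MFP. Gm23458, Gm37849, Gm13241 and Mir1955 rest on few counts, 25 to 95 per library. Of the other thermogenic genes, Dio2 was nearest to Ucp1 at 0.297, rank 2544 of 22484, and Kcnk3 next at 0.537. Zic1 at 1.71 and Elovl3 at 1.51 were farthest. Over 4 libraries such distances describe the values only.

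The wider programme was described with 116 other genes in 7 lists, 1 of which holds genes higher in white than brown adipocytes. Of the 116, Il6 and Tcf21 were too low to be tested. None of the 114 passed an adjusted p of 0.05 by edgeR. At an unadjusted p of 0.05, 25 were higher and 2 lower, where 7.24% of all genes were higher and 3.31% lower. Among the 25, Sln and Fgf21 passed the filter on low counts only through the aged libraries, in which they were high. DESeq2 called 12 higher and 0 lower, where it called 3.03% of all genes higher and 0.642% lower. Both aged libraries were above both young ones for 47 of them and below for 13, where 23.3% of all genes were above and 22.8% below. These shares of all genes are also the background for each of the 7 lists. The median log2 fold change of the 114 genes was 0.22 on the TMM scale and -0.11 when scaled to adipocyte markers, where that of all genes was -0.37. The list of genes higher in white adipocytes supplied 5 of the 25 higher genes and 2 of the 12 called by DESeq2, so these counts are not of thermogenic genes alone.

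**Figure D4:**
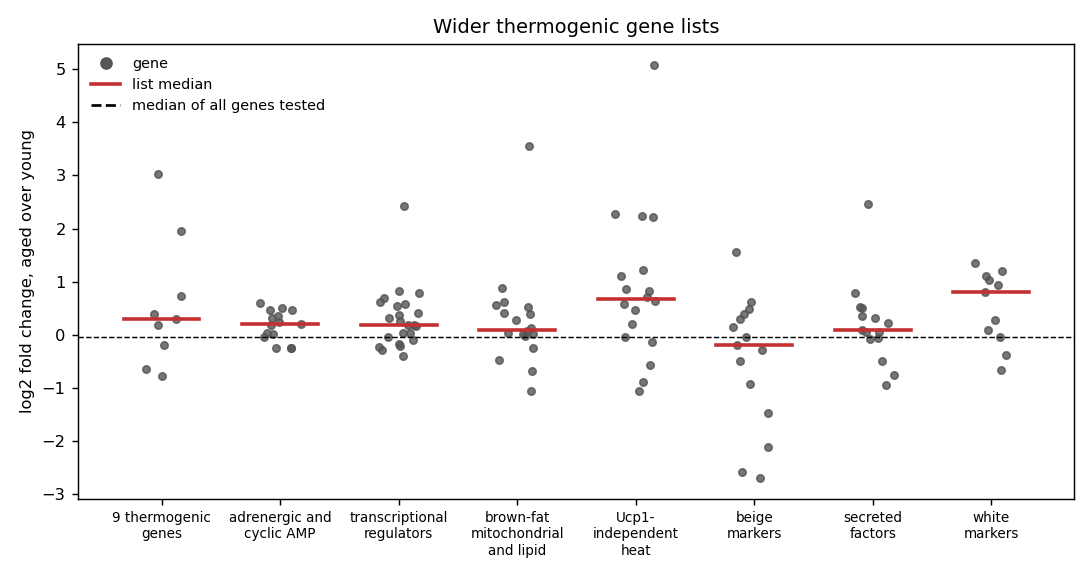
Change with age (log2 of aged over young) of each tested gene (points) of the 9 thermogenic genes and 7 wider lists, with the median of each list (red line) and of all genes tested (dashed line, -0.04). List medians range from -0.19 for beige markers to 0.81 for white markers, and the point at 5.09 is Sln, whose young libraries hold 3 counts or fewer, so that its fitted fold change is no measured size.

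Upstream of the programme, the 15 genes of adrenergic and cyclic AMP signalling had a median log2 fold change of 0.21 (-0.13 scaled to adipocyte markers), with 7 higher and 1 lower in both aged libraries (23.3% and 22.8% of all genes), and DESeq2 called none. Adrb3, the beta receptor most typical of mouse adipocytes, was at 185 and 197 CPM in young and 321 and 223 CPM in aged MFP (log2 fold change 0.51, SE 0.23, adjusted p = 0.509 by edgeR). It did not share the direction of Ucp1, but it is 1 of the 12 adipocyte markers, and its log2 fold change was 0.15 when scaled to them. Adrb1 was at 12.2 and 26.7 CPM in young and 32.2 and 26.7 CPM in aged MFP. Creb1, the gene of the factor CREB, was at 98.9 CPM in the lymphocyte-rich young replicate 1 and 61.8 to 68.5 CPM in the other libraries. Markers of Schwann cells and sympathetic axons summed to 390 and 439 CPM in young and 428 and 415 CPM in aged MFP, but Dbh, the enzyme that makes noradrenaline, had 3 counts or fewer in every library and Th was too low to be tested.

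Among 23 further transcriptional regulators, the median was 0.19 (-0.16 scaled to adipocyte markers), with 8 higher and 2 lower in both aged libraries. DESeq2 called Rxra, Rxrg and Esrrb higher. Esrrb, an orphan nuclear receptor, was at 3.6 and 10.7 CPM in young and 31.9 and 45.2 CPM in aged MFP (log2 fold change 2.43, SE 0.61, adjusted p = 0.409 by edgeR, adjusted p = 0.00271 by DESeq2). It was 1.84 without young replicate 1 and 3.42 without young replicate 2. The muscle markers were 4.15 times as high in aged MFP, and their part in the calls of Rxra, Rxrg and Esrrb was not tested. Pparg, the receptor that directs adipocyte differentiation, was at 114 and 136 CPM in young and 213 and 193 CPM in aged MFP. Irf4, which works with Ppargc1a in brown fat and is also a lymphocyte factor, had its highest value of 51.4 CPM in young replicate 1 and 29.6 to 33.1 CPM elsewhere.

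The 18 mitochondrial and lipid genes enriched in brown fat had a median of 0.10 (-0.20 scaled to adipocyte markers), with 7 higher and 3 lower in both aged libraries. Cidea, a lipid droplet protein that usually accompanies Ucp1, was at 25.6 and 35.2 CPM in young and 38.6 and 48.9 CPM in aged MFP. Opposite to Ucp1, its log2 fold change was 0.53 (SE 0.24, adjusted p = 0.512 by edgeR), and 0.21 when scaled to adipocyte markers. The 12 adipocyte markers had a median of 0.44 on the TMM scale. Cox8b, a cytochrome oxidase subunit of brown fat and striated muscle, was at 32.7 and 32.5 CPM in young and 53.7 and 66.1 CPM in aged MFP (log2 fold change 0.88, SE 0.17, adjusted p = 0.37 by edgeR, adjusted p = 0.00986 by DESeq2). Fabp3, a fatty acid binding protein of heart, muscle and brown fat, was at 1.46 and 0.989 CPM in young and 23.3 and 5.72 CPM in aged MFP, and was called by DESeq2 (adjusted p = 9.32e-05). Its log2 fold change of 3.56 became 2.20 without aged replicate 1. Bmp8b, a secreted factor of brown fat, was at 0.512 and 1.11 CPM in young and 0.501 and 0.281 CPM in aged MFP.

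Heat can also be made without Ucp1, by creatine and calcium cycling, and these 18 genes had a median of 0.68 (0.37 scaled to adipocyte markers), with 12 higher and 1 lower in both aged libraries (23.3% and 22.8% of all genes). DESeq2 called Ckb, Ckmt2, Atp2a1, Ryr1 and Slc25a4 higher (3.03% of all genes). Atp2a1, Ryr1 and Ckmt2 are known for their function in striated muscle, where they serve contraction and its energy supply. Sln, a muscle inhibitor of the calcium pump, was at 0 and 3 counts in young and 12 and 114 counts in aged MFP. The muscle markers were higher in the same libraries, at 30510 and 46110 CPM in aged and 7957 and 10860 CPM in young MFP even without the myosins. Their part in the counts of these lists was not tested.

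Markers used for beige adipocytes had the lowest median of the 7 lists at -0.19 (-0.48 scaled to adipocyte markers), with 4 of 15 higher and 2 lower in both aged libraries and none called by DESeq2. Their largest negative values came from genes that were high in 1 young library. Cd40 was at 24.5 CPM, Tnfrsf9 at 9.92 CPM and Tmem26 at 4.11 CPM in young replicate 1, against at most 3.05, 1.17 and 1.28 CPM in any other library. Their log2 fold changes of -2.70, -2.59 and -1.47 became 0.85, 0.16 and 0.51 without that library, in which the lymphocyte markers were also highest. Tbx1, at 2.77 and 3.08 CPM in young and 3.88 and 13.3 CPM in aged MFP, was highest in aged replicate 2, as Elovl3 was, and its log2 fold change was 1.55, or 0.40 without that library.

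Secreted factors of thermogenic fat had a median of 0.09 (-0.20 scaled to adipocyte markers) over 15 tested genes, with 4 higher and 2 lower in both aged libraries. Fgf21, a metabolic hormone, was at 0.0854 and 0.0813 CPM in young and 0.318 and 0.618 CPM in aged MFP. These are 7 and 6 counts in young and 26 and 55 counts in aged MFP. The filter on low counts kept Fgf21 for its aged libraries alone. Angptl4, an inhibitor of lipoprotein lipase, was at 105 and 127 CPM in young and 78.8 and 42.0 CPM in aged MFP. Genes higher in white than brown adipocytes had the highest median of the 7 lists, 0.81 (0.45 scaled to adipocyte markers), with 5 of 11 higher and 2 lower in both aged libraries. Lep, the leptin gene, was at 170 and 186 CPM in young and 503 and 314 CPM in aged MFP (log2 fold change 1.2, SE 0.28, adjusted p = 0.404 by edgeR, adjusted p = 0.0164 by DESeq2), and 0.80 without aged replicate 1. DESeq2 also called Npr3 higher. Nnat was at 129 and 53.8 CPM in young and 434 and 30.7 CPM in aged MFP, and its log2 fold change of 1.34 became -1.60 without aged replicate 1. Igfbp3 was at 25.4 and 44.7 CPM in young and 18.8 and 25.2 CPM in aged MFP.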

How the data were processed

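Total RNA of mouse mammary fat pad, 2 young and 2 aged samples, was sequenced by the authors, who deposited unnormalized whole-number counts of reads per gene, 1 column per sample. The submitters' processing notes name featureCounts, R 3.6.1 and GRCm38. The aligner, annotation and strand setting are not given in the sources used here. Groups and replicate numbers come from the sample labels. Counts were tested with R 4.3.3 and edgeR 4.0.16 (filterByExpr, TMM, glmQLFit and glmQLFTest, age as the only term, Benjamini-Hochberg threshold 0.05). The standard error is the size of the log2 fold change over the square root of F, and log2 CPM used a prior count of 2. The code was tested on simulated data. DESeq2 1.42.0, the likelihood ratio test, other scalings and filters, replicate blocks and leaving out each sample were alternatives, of which the crossed block was chosen after seeing the data. Scaling to adipocyte markers used the mean of their log2 counts relative to the library total.

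The members and gene lists were chosen with earlier results of these data known. Genes named were the 9 members, beta adrenergic receptors, the largest increase and decrease of each wider list, the most abundant gene of each marker list and the 5 genes nearest to Ucp1. Some genes that this rule names are not reported here. Cidea, Cox8b, Lep, Adipoq, Pparg, Tnfrsf9, Tmem26, Myh2 and the genes called by DESeq2 were added after their values were seen, as were marker genes at 3 counts or fewer and the overlapping genes. Positions come from GENCODE M21 (GRCm38), which holds 55141 of the 55487 identifiers, and promoters from RefSeq (GRCm38.p6), whose start sites can differ from those of GENCODE. In the library of smallest depth, with 68803304 counts, 3 counts stand at 0.0407 CPM after TMM scaling. PCR reads without molecular identifiers are not independent molecules. No other table was used.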

Additional observations from a re-analysis of the deposited data

How the results depend on the processing

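With edgeR's quasi-likelihood test, 0 of the 9 thermogenic genes, 0 of the 116 wider genes and 0 of all genes passed an adjusted p of 0.05 under every scaling, filter, dispersion setting and left-out library tried. DESeq2 called 2, 12 and 845 of them and the likelihood ratio test of edgeR 1, 8 and 490, and the cause of the difference was not tested. At an unadjusted p of 0.05 the quasi-likelihood test gave 3, 27 and 2371. Scaling moved the median log2 fold change of all genes from -0.04 to -0.03 (RLE), -0.07 (upper quartile), -0.22 (total counts only) and -0.37 (adipocyte markers). Directions turned with scaling to adipocyte markers for Lhx8 (-0.09), Otop1 (-0.12) and Prlr (-0.34), with total counts only for Otop1 (-0.02) and Prlr (-0.17), and with upper quartile scaling for Prlr (-0.03). Leaving out each library in turn gave ranges that cross 0 for Lhx8 (-0.55 to 0.82), Otop1 (-0.18 to 0.44), Kcnk3 (-0.69 to 0.16), Creb1 (-0.55 to 0.13), Irf4 (-0.71 to 0.02), Atp2a3 (-1.87 to 0.90), Cd40 (-3.85 to 0.85), Nnat (-1.60 to 2.24), Prlr (-0.52 to 0.87), Lyz2 (-1.96 to 1.07), Tnfrsf9 (-3.47 to 0.16) and Tmem26 (-2.51 to 0.51). In these fits the lone sample is assumed to vary like those of the other age. The median difference in log2 CPM of the 9 genes, 0.16, ranged from -0.01 (without young replicate 1) to 0.54 (without aged replicate 2). The deviations of same-numbered samples correlated at -0.482 over 22485 genes. With 2 libraries at each age this cannot decide whether the numbers pair the samples. With the replicate block the log2 fold change was -0.79 for Ucp1 and 0.73 for Ppargc1a, and 0 genes were called with it or with crossed pairs. Zic1 has no value when 10 counts are required in every sample, and its 5 to 68 counts and the 2 libraries per age limit what depth can show.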

Other observations

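Other cell types of the MFP were measured in the same libraries. Des, an intermediate filament gene of muscle and pericytes, was at 122 and 132 CPM in young and 507 and 752 CPM in aged MFP (log2 fold change 2.31, SE 0.26, adjusted p = 0.36 by edgeR, adjusted p = 6.24e-11 by DESeq2). The 12 markers of smooth muscle and pericytes, of which it is 1, summed to 1027 and 1529 CPM in young and 1827 and 2213 CPM in aged MFP. Of the 12, 5 were higher and 0 lower in both aged libraries (23.3% and 22.8% of all genes). Without Des the ages overlapped, at 905 and 1397 CPM in young and 1319 and 1461 CPM in aged MFP. Ttn, the sarcomere protein titin, was at 5220 and 6480 CPM in young and 21300 and 28400 CPM in aged MFP (log2 fold change 2.09, SE 0.57, adjusted p = 0.418 by edgeR, adjusted p = 6.9e-10 by DESeq2). Cfd, the adipokine adipsin, was at 2960 and 3290 CPM in young and 4710 and 4130 CPM in aged MFP, above the young libraries as Adipoq was.

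Markers of endothelium overlapped between the ages, at 747 and 867 CPM in young and 1088 and 805 CPM in aged MFP, with Cdh5 at 136 and 156 CPM against 226 and 151 CPM. Markers of macrophages summed to 637 and 303 CPM in young and 419 and 517 CPM in aged MFP. Lyz2, the most abundant of these, was at 374 CPM in young replicate 1 and 45.9 to 119 CPM in the others. Of the 12 macrophage markers, 11 had a positive log2 fold change, with Lyz2 as the exception. Both aged libraries were higher for 5 of 12 and lower for 0, where 23.3% of all genes were above and 22.8% below. Mc5r, a melanocortin receptor of sebaceous glands and the most abundant of the 12 epidermal and sebaceous markers, was at 3.57 and 4.99 CPM in young and 6.43 and 8.43 CPM in aged MFP. Prlr, the prolactin receptor of mammary epithelium, was at 543 and 1430 CPM in young and 1130 and 854 CPM in aged MFP. Pmp22, a myelin gene of Schwann cells, was at 152 and 171 CPM in young and 113 and 157 CPM in aged MFP. Its log2 fold change was negative, as for 3 of the 10 tested markers of Schwann cells and axons, while 7 were positive. Both aged libraries were higher for 2 of the 10 and lower for 0, where 23.3% of all genes were above and 22.8% below.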
